A study of Mus musculus with 60 samples.

Results

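H3WT cells are mouse C3H 10T1/2 mesenchymal progenitors that carry a lentiviral copy of the human replication-coupled histone H3.1, driven by the EF1 promoter, fused to HA and FLAG tags at its C-terminus and selected with puromycin. They serve in the study as the wild-type control for cells that express the same tagged histone with an arginine-to-cysteine substitution (H3R2C, H3R8C, H3R17C or H3R26C). The endogenous H3 genes remain in all of these cells, so the tagged protein is one part of the H3 pool, and the cells derive from a single established line. Chromatin was profiled by CUT&RUN, in which an antibody directs a nuclease to cut and release the DNA it marks. The authors deposited 1 peak list for each labelled sample used here.

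The description covers the H3WT samples labelled anti-H3K27me3 and anti-HA, which are 6 of the 60 samples of the series. In both groups the lists labelled replicates 1 and 2 held identical values and were counted as 1 list, so that 4 independent lists remained, 2 for each antibody. They are called here the first list (replicates 1 and 2) and the second list (replicate 3). No IgG lists were among the data used here, so the background of the antibodies was not measured. The lists themselves hold peaks and no read totals. Library read totals are stated by the study, and by them all H3WT HA libraries were read more deeply than the H3WT H3K27me3 libraries; which of the libraries labelled replicates 1 and 2 gave the shared HA list is not stated. A region was defined as a stretch of overlapping or touching peaks from the 2 lists of an antibody, and it counted as called in both when it held at least 1 bp of each list.

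H3K27me3 is the trimethylated form of lysine 27 of histone H3, written by the Polycomb repressive complex PRC2 through its catalytic subunits Ezh2 or Ezh1 and bound by the Cbx subunits of PRC1. In differentiated and progenitor cells it typically lies over silent developmental genes, among them the Hox genes, which encode the homeodomain factors of the body axis, and the master transcription factors of other lineages. The HA antibody follows the tagged histone itself, and H3.1 is deposited behind replication forks rather than at a particular class of gene.

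Promoter sequences of 5 genes introduce the classes found below, because H3K27me3 is often linked to CpG-rich promoters. Hoxc13 lay in the longest H3K27me3 region, Pax2 in a long region with a single gene start, and Myod1 in a region of ordinary length. Tbx21 carried H3K27me3 and HA in all 4 lists, and Metrnl lay in the longest HA region without H3K27me3. Each line gives the 250 bases before the annotated start, read 5′ to 3′ from the GRCm38 genome (mm10), with CG dinucleotides in capitals.
Hoxc13, chr15:102920853-102921102, plus strand: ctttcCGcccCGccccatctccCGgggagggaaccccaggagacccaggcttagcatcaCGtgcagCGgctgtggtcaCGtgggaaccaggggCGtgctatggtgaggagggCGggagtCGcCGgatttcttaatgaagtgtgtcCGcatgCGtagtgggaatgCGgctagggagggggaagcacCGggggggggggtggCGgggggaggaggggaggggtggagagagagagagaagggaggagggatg
Pax2, chr19:44755795-44756044, plus strand: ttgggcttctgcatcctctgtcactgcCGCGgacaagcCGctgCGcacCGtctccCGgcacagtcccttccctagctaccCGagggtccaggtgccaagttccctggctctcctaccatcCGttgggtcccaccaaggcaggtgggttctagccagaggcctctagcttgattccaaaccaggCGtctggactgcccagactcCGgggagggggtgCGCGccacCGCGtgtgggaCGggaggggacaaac
Myod1, chr7:46376224-46376473, plus strand: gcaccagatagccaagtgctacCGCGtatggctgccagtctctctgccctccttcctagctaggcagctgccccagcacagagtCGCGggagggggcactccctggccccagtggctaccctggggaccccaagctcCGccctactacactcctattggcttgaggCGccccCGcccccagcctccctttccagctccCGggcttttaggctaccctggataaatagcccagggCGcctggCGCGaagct
Tbx21, chr11:97115332-97115581, minus strand: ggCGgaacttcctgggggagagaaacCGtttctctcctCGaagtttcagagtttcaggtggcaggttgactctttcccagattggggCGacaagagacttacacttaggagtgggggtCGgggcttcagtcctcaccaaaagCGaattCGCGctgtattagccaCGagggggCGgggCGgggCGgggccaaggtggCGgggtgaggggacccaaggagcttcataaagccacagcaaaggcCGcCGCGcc
Metrnl, chr11:121702161-121702410, plus strand: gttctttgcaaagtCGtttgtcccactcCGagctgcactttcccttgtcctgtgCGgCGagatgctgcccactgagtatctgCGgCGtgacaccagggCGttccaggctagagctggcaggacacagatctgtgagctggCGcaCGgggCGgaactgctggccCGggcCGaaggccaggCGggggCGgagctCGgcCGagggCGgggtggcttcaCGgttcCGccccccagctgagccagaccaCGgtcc

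These 250 bases held 15 CG dinucleotides at Hoxc13, 15 at Pax2, 11 at Myod1 and 16 at Tbx21. The promoter of Metrnl, without H3K27me3, held 20, so CG content was not higher at the examples with H3K27me3 than at the one without. Over all genes the contents were close. In the 300 bases from 250 before to 50 after the main start, the median was 11 CG dinucleotides for the 2093 genes with H3K27me3 in both lists and 12 for all 21796 genes with a readable promoter. At least 10 CG dinucleotides were present in 53.6% of the promoters of genes with H3K27me3 and in 55.9% of all promoters, and at least 1 in 96.8% and 94.9%. A gene counted as marked when a peak of each list lay within 1 kb of any of its annotated starts. H3K27me3 in both lists covered the main start itself in 69.4% of the 2093 genes, so some of the promoters counted may not be the marked ones. Within the H3K27me3 genes the content differed with region length, since the median was 13.5 for the 384 genes in regions of 20 kb or more and 10 for the 495 genes in regions under 5 kb.

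The H3K27me3 landscape was nearly alike in size in its 2 lists. The first list held 22083 peaks over 103.6 Mb with a median width of 3.05 kb, and the second held 20543 peaks over 98.6 Mb with a median width of 3.15 kb. Together they gave 24102 merged regions, of which 14326 (59.4%) were called in both, 5681 in the first list only and 4095 in the second only. The bases in both lists came to 74.5 Mb, or 2.81% of the sequenced genome, and their ratio to the bases in either list was 0.583. Over the 14326 regions the mean coverage in the 2 lists had a Spearman rho of 0.751, given as a description over regions of 1 genome.

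The HA lists were less alike. The first list held 15344 peaks with a median width of 10.7 kb over 213.4 Mb, and the second 37907 peaks with a median width of 2.65 kb over 134.6 Mb. The lowest total signal of a peak (coverage summed over its bases) was 43200 in the first HA list and 6300 in the second, against 5800 and 6000 in the H3K27me3 lists, so the first HA list starts at a higher signal than the other 3. Of 33101 merged HA regions 10114 (30.6%) were called in both lists, 5068 in the first only and 17919 in the second only. The bases in both lists made up 79.6 Mb (3.01% of the genome), with a ratio to the bases in either of 0.296.

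A few stretches of extreme coverage stood apart in every list. Peaks with a mean coverage over 50 numbered 18 and 15 in the H3K27me3 lists and held 3.56% and 2.77% of the total signal. In the HA lists there were 41 and 45, with 41.2% and 48.6% of the signal. In all, 14 such stretches were present in all 4 lists, and they include the H3K27me3 region of highest mean coverage, at the predicted gene Gm10800 on chromosome 2 (8877 and 6580), and the fifth highest, at Gm21738 on chromosome 14 (1153 and 872); the second to the fourth held no protein-coding start. Without these peaks 14309 in place of 14326 H3K27me3 regions and 2089 in place of 2093 genes were called. To compare genes, coverage is given below as relative coverage, which is the mean coverage per bp of the peaks at a gene or in a region divided by the median of that list over its both-called regions, so that 1 is an ordinary region.

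H3K27me3 regions in both lists had a median length of 5.15 kb, with the middle 50% between 3.45 and 8.45 kb, and HA regions a median of 12.1 kb. The order of lengths was not the same in every list. Median peak widths were 10.7 and 2.65 kb in the HA lists and 3.05 and 3.15 kb in the H3K27me3 lists, so the second HA list had narrower peaks than H3K27me3. Most H3K27me3 regions were short, 5650 (39.4%) between 2.5 and 5 kb and 4738 (33.1%) between 5 and 10 kb. The 642 regions of 20 kb or more were 4.48% of the regions and held 18.9% of the bases. The 1245 regions under 2.5 kb had a median relative coverage of 0.967 and 0.970 in the 2 lists. The lowest total signal of a peak was 5800 and 6000 in the H3K27me3 lists, and its part in these values was not tested. From 2.5 kb on, coverage was higher in longer regions. It was 0.903 and 0.907 at 2.5 to 5 kb and 1.86 and 1.84 in the 37 regions of 50 kb or more. In the same 2 classes a protein-coding gene start lay in 9.47% and 73.0% of the regions, and the median CG content was 8.36 and 12.2 per kb. A longer region spans more bases, so starts and length cannot be told apart here. Of the HA regions 8% held a start at 2.5 to 5 kb and 64.3% at 50 kb or more. Their relative coverage was 2.13 and 2.06 at 2.5 to 5 kb (125 regions). It was 0.959 and 0.970 at 10 to 20 kb and 1.25 and 1.18 at 50 kb or more. The lowest total signal of a peak was 43200 in the first HA list. A short peak thus needed a high mean coverage to be listed there, and the higher values of short HA regions cannot be told apart from this floor.

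**Figure D1:**
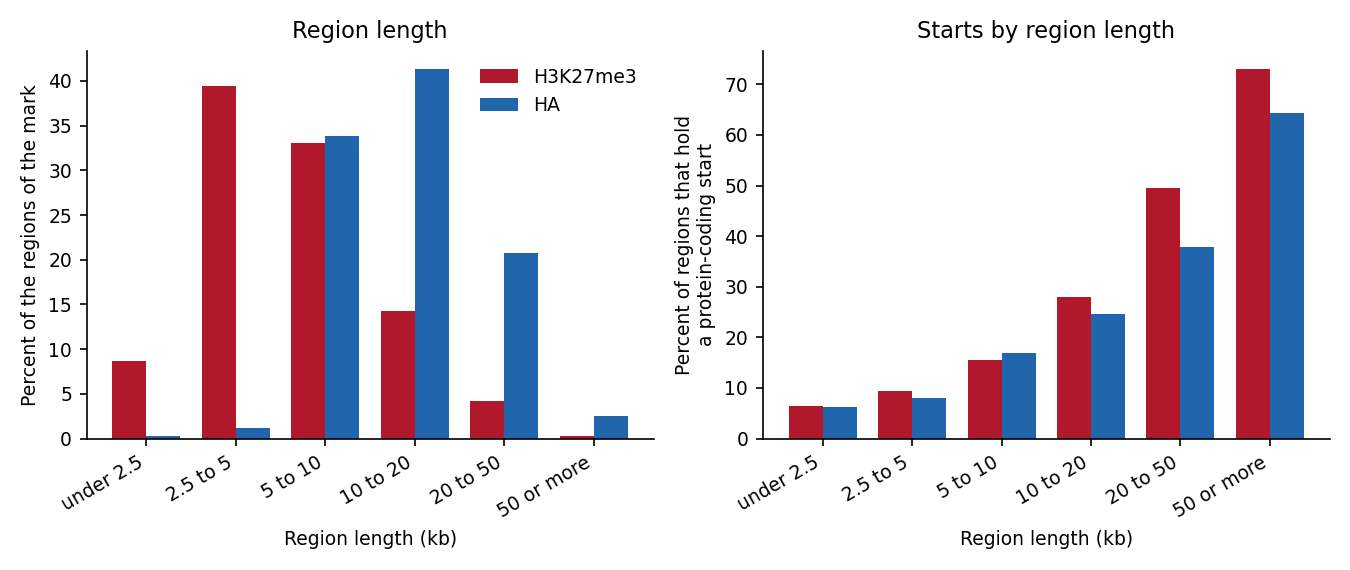
Regions called in both lists by length class (kb), for H3K27me3 (red, 14326 regions) and HA (blue, 10114 regions). The left panel gives the percent of the mark's regions in each class and the right panel the percent of the regions in a class that hold a protein-coding start, which for H3K27me3 is 73.0% at 50 kb or more.

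Of the 10 longest H3K27me3 regions 3 spanned gene clusters and 6 held a single start. The longest, on chromosome 15 (chr15:102891301-103127700, 236.4 kb), covered the starts of all 9 Hoxc genes from Hoxc13 to Hoxc4, with a relative coverage of 3.61 in the first list and 3.55 in the second. The Hoxb genes from Hoxb9 to Hoxb1 lay in a region of 142.35 kb on chromosome 11 (3.71 and 3.56). The third cluster, on chromosome 9 (102.25 kb), held Scn2b and Scn4b, which encode beta subunits of voltage-gated sodium channels, beside Mpzl3 and Jaml. Single-gene regions covered Elovl2 (124.9 kb, 2.11 and 2.01), an elongase of polyunsaturated fatty acids, Pax2 (111.1 kb, 2.81 and 2.96), a regulator of kidney development, and Pax5 (90.65 kb, 2.67 and 2.59), a regulator of B cells. Galnt14, Cntn2 and Aldh1a2, the last of which makes retinoic acid, had regions of 83.6, 81.55 and 78.95 kb. The remaining one, 192.3 kb on the X chromosome, held no protein-coding start and lay 31.7 kb from the nearest, that of Gpc3, with a relative coverage of 1.83 and 1.44.

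Gene starts with H3K27me3 were counted when a peak of each list lay within 1 kb of a start. This held for 2093 of 21800 protein-coding genes, or 9.6%, and a further 678 genes had a peak in 1 list only. Beside that background, families of developmental transcription factors had the mark at higher shares, given as a description without a test. Of 39 Hox genes 31 (79.5%) had it in both lists. Other homeobox genes, counted together with all Pax genes, followed with 77 of 116 (66.4%). T-box genes had it at 9 of 16 (56.3%), tissue-specific bHLH genes at 26 of 50 (52.0%) and Sox genes at 7 of 19 (36.8%). Gata genes had it at 2 of 6 (33.3%) and Forkhead genes at 11 of 44 (25%). Counts in single lists were close to these, 77 and 79 for the other homeobox genes and 27 and 28 for the bHLH genes.

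The 4 Hox clusters were not alike. All 9 Hoxc genes, all 10 Hoxb genes and all 9 Hoxd genes were called in both lists. In the Hoxa cluster the 3 genes at one end, Hoxa10, Hoxa11 and Hoxa13, which act at distal positions of the limb and genital tract, had H3K27me3, whereas Hoxa2 and Hoxa3 had no peak in either list. Hoxa13 had a relative coverage of 2.27 in the first list and 2.10 in the second, and Hoxa10 had 0.821 and 1.04. At Hoxb13 the values were 4.40 and 3.97, the highest of the Hox genes, and at Hoxd10 they were 2.65 and 2.38. Hoxd1 had the lowest values among the Hoxd genes, 1.16 and 0.990.

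Among the other homeobox genes 37 of the 77 marked genes lay in regions of 20 kb or more. Nkx2-3, needed for the spleen and gut vessels, had a region of 60.5 kb with relative coverages of 4.30 and 3.62. Pax3, Pax8 and Pax9 had no peak in either H3K27me3 list. Of the bHLH genes, Hand2, a factor of heart and limb, had a region of 51.65 kb (2.52 and 2.21), Tcf21, a factor of visceral mesenchyme, 45.75 kb (2.54 and 2.25), and Olig3, a neural progenitor factor, 45 kb (2.63 and 2.92). Sox1, a neural factor, had 3.0 and 3.05 over 37.45 kb, and Foxa2, an endodermal factor, 2.22 and 2.16 over 46.95 kb. Gata4, a factor of heart and endoderm, had 1.76 and 2.39, whereas Gata1, Gata2 and Gata3 had no H3K27me3 peak.

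Signalling genes and genes of differentiated cell types from other tissues were also marked often. Of the Wnt ligands 12 of 19 (63.2%) had H3K27me3 in both lists, with the longest regions at Wnt7a (39.0 kb, 2.07 and 2.15), Wnt10a (27 kb, 1.18 and 2.25) and Wnt8b (23.4 kb, 2.02 and 1.98). Fgf, Bmp and Gdf ligands were marked at 10 of 44 (22.7%), led by Fgf9 (37.9 kb, 2.63 and 2.40). Potassium channel genes were marked at 39 of 94 (41.5%), with the neighbours Kcnj10 and Kcnj9 in a region of 37.1 kb. Neuronal markers were marked at 10 of 20 (50%), for example Nefl, a neurofilament subunit (37.25 kb, 2.23 and 2.33), and Chat, the acetylcholine-synthesising enzyme (2.03 and 2.45), while Tubb3, Map2 and Snap25 had no H3K27me3 peak. Hepatocyte markers were marked at 7 of 15 (46.7%), among them Alb, serum albumin, and Afp, its fetal counterpart, in regions of 44.35 and 29.5 kb, while Apoa1, Apoa2 and Apob had none.

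Lower shares were found in the remaining tissue lists. They were 5 of 19 (26.3%) for epithelium, 5 of 24 (20.8%) for blood and 2 of 15 (13.3%) for endothelium. Pluripotency and germline genes were marked at 4 of 16 (25%), with Esrrb, Lin28a and Prdm14 marked and Pou5f1, Nanog and Zfp42 without an H3K27me3 peak. Glutamate, GABA and glycine receptor genes stood at 8 of 42 (19%), keratins and keratin-associated genes at 22 of 110 (20.0%) and non-clustered protocadherins at 2 of 12 (16.7%). Imprinted genes stood at 3 of 25 (12%), near the background, with Igf2, Kcnq1 and Zdbf2 marked.

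Genes that define mesenchymal cells, and genes that every cell uses, were without the mark. None of 28 mesenchymal genes, including the collagens Col1a1, Col1a2 and Col3a1, had an H3K27me3 peak in either list, and none of 20 housekeeping genes. None of the 7 cyclin-dependent kinase inhibitor genes was marked, and among 33 measured Polycomb subunit genes the exception was Phc2, with a region of 2.15 kb and relative coverages of 0.778 and 0.767. Over all genes 9.6% had the mark, and the housekeeping list was without it too. Its absence from the mesenchymal list is therefore a weak check of the cell label. The peak lists hold no expression. Large families of sensory and zinc finger genes lay below the background, olfactory receptors at 70 of 1090 (6.42%), vomeronasal receptors at 9 of 325 (2.77%) and Zfp genes at 13 of 391 (3.32%). Genes listed as histone genes stood at 4 of 102 (3.92%), all 4 of them H2al1 genes on the X chromosome. That list also holds H13, which encodes no histone. None of 55 clustered protocadherins was marked.

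The lineages into which these progenitors can differentiate are given here against the background of 9.6% of all genes. Cartilage genes were marked at 3 of 20 (15.0%), bone genes at 2 of 20 (10.0%), fat genes at 4 of 22 (18.2%) and skeletal muscle genes at 6 of 31 (19.4%). In cartilage the marked genes were Col9a1 (24.45 kb, 1.68 and 1.60), Ihh (23.05 kb, 2.43 and 2.52), a hedgehog ligand of the growth plate, and Acan (7.9 kb, 1.42 and 1.45), the main proteoglycan, whereas the regulator Sox9 had no peak in any of the 4 lists. In bone they were Sost (2.16 and 2.22), the Wnt antagonist of osteocytes, and Msx2 (2.12 and 2.37), while Runx2 and Sp7, the osteoblast regulators, had no H3K27me3 peak. In fat the hormone genes Lep (0.878 and 1.02) and Retn (1.39 and 1.10) and the brown fat regulator Prdm16 (1.1 and 1.5) were marked, and the adipogenic regulators Pparg, Cebpa and Cebpb were not. Skeletal muscle had the mark at Pax7 (2.79 and 2.70), the satellite cell factor, and at Myod1 (1.10 and 1.31), the determination factor, but not at Myf5, Myf6 or Myog. Of the 10 lineage genes named in the text of the study, Myod1 was the single one with H3K27me3, in a region of 7.7 kb, and Bmp4, Pparg and Notch3 carried HA in both lists. This list was put together from genes that the text of the study names, so it is no independent evidence of a direction.

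**Figure D2:**
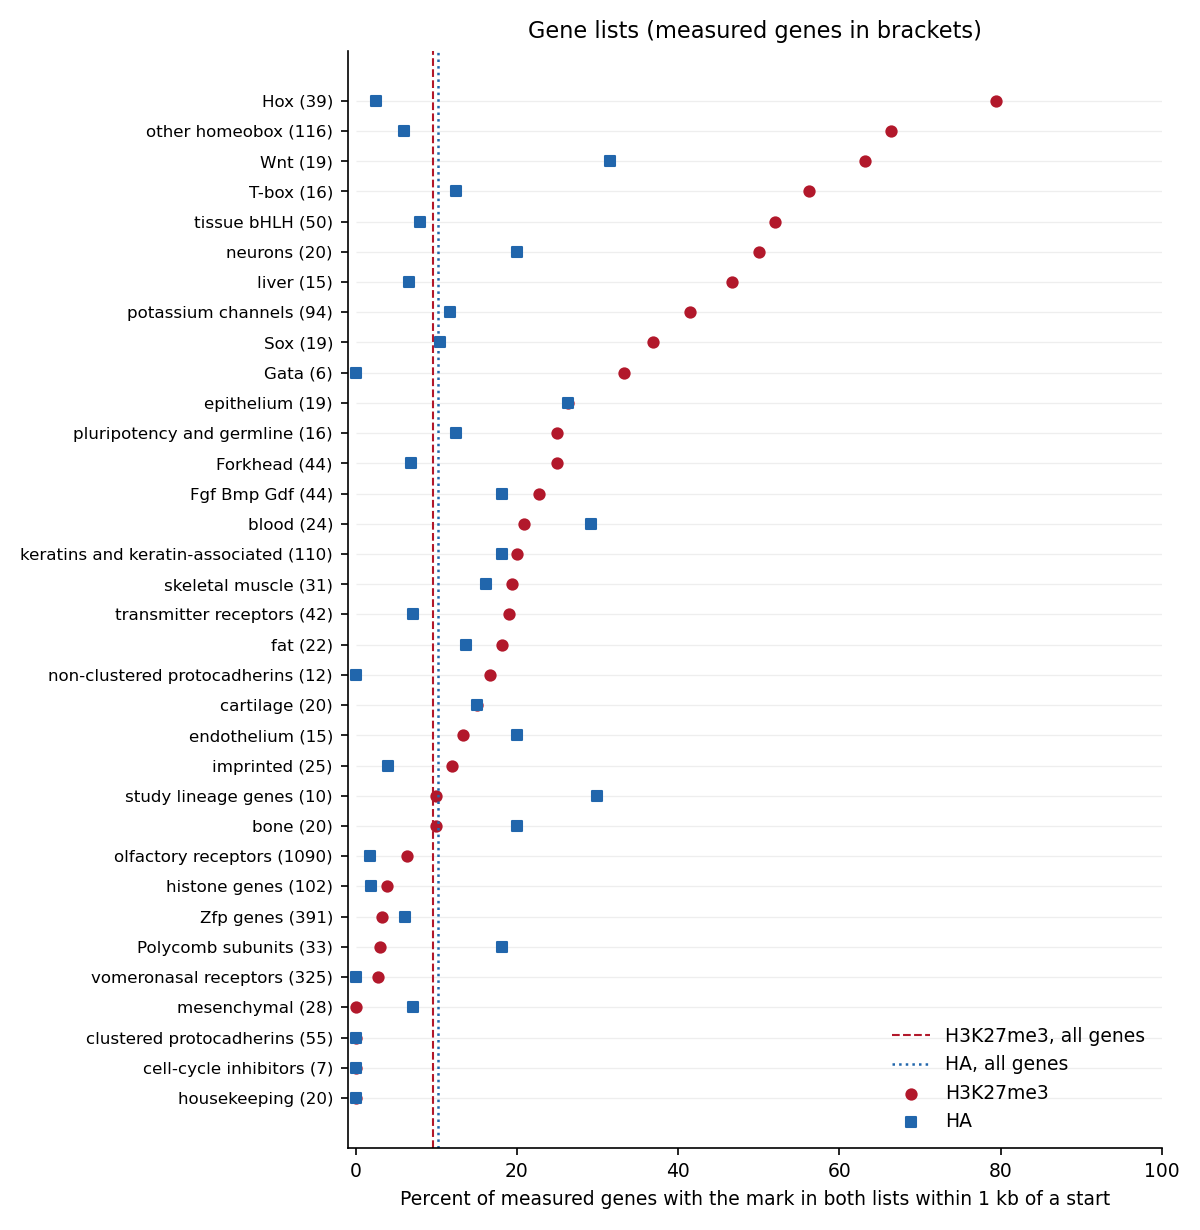
Percent of the measured genes of 34 lists with H3K27me3 (red circles) or HA (blue squares) in both lists within 1 kb of a start, ordered by the H3K27me3 share. Dashed and dotted lines give the shares over all 21800 protein-coding genes, 9.6% and 10.2%; the H3K27me3 shares run from 79.5% for Hox genes to 0 for mesenchymal and housekeeping genes, while the highest HA share is 31.6%.

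Tagged H3 had another order of gene lists than H3K27me3. HA was present in both lists at 2232 of 21800 genes, or 10.2%, with a further 3153 genes in 1 list only. Hox genes had it at 1 of 39 (2.56%), Hoxc4, and other homeobox genes at 7 of 116 (6.03%). The highest share was that of Wnt ligands, 6 of 19 (31.6%), followed by 3 of the 10 lineage genes (30%), blood markers with 7 of 24 (29.2%) and epithelial markers with 5 of 19 (26.3%). HA was present at 34.4% of the genes of chromosome 15 and at 2.90% of those of chromosome 3. The shares of the gene lists were not adjusted for chromosome, so they show no preference for a gene family. Polycomb subunits, of which Phc2 alone had H3K27me3 in both lists, had HA at 6 of 33 (18.2%). Among them were Cbx2 and Cbx8 in 1 region of 106.7 kb (1.3 and 1.23 at Cbx2) and Ezh1 (1.14 and 1.34). Ezh2 and Eed had neither an H3K27me3 peak nor an HA peak. Mesenchymal genes stood at 2 of 28 (7.14%), Col5a1 (1.29 and 1.24) and Eng (1.29 and 1.24), and none of the housekeeping genes had HA in both lists. 

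The 10 longest HA regions ranged from 120.9 to 187.65 kb, and in contrast to H3K27me3 9 of them held between 2 and 12 starts. The longest lay on chromosome 11 over B3gntl1, Metrnl and Ptchd3, with a relative coverage of 1.36 in the first list and 1.26 in the second. The next, on chromosome 8 (154.6 kb), covered Zfpm1, a cofactor of Gata factors, with Trhr2 and Zc3h18. A region of 120.9 kb on chromosome 19 spanned 12 starts, from Cdk2ap2 to Rad9a. The one without a start, 144.2 kb on chromosome 10, had the highest relative coverage of the 10, 2.21 and 1.76. None of the 10 overlapped H3K27me3 by more than 17.4% of its bases, which was the region at Lgals3bp.

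Per list, 10.8% and 11.5% of genes had H3K27me3 within 1 kb of a start, and 17.5% and 17.4% had HA. The means were 11.2% ± 0.480 (SD, n = 2) and 17.5% ± 0.0811 (SD, n = 2), a difference of -6.31 percentage points for H3K27me3 minus HA. The groups did not overlap, but 2 lists against 2 cannot go below p = 0.333 in a two-sided exact permutation test, which is the value obtained. By bases, 4.94% of the H3K27me3 in both lists lay within 1 kb of a start against 2.08% of the genome, a ratio of 2.38, and 53.6% was intergenic (ratio 0.891). The corresponding HA bases were near starts at 4.19% (ratio 2.02) and exonic at 6.91% (ratio 2.57), where H3K27me3 had an exon ratio of 1.35. Their GC content was 44.0% for H3K27me3 and 47.2% for HA, against 41.7% for the genome.

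Around gene starts the shares of the marks differed in shape. Over all genes, the share covered by H3K27me3 in both lists was 4.88% at 20 kb upstream, 6.66% at the start, 7.19% at 1 kb downstream and 3.88% at 20 kb downstream. HA was lower near the start, at 7.39%, 6.18%, 6.13% and 7.30% at the same positions. The dip was seen at promoters without H3K27me3 and with at least 10 CG dinucleotides, where HA stood at 9.50% at 20 kb upstream and 6.30% at the start. At promoters without H3K27me3 and under 10 CG dinucleotides it was 5.54% and 6.23%, and at H3K27me3 genes 5.06% and 5.54%. These are shares of genes of 1 pair of lists, and no test was made on them.

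**Figure D3:**
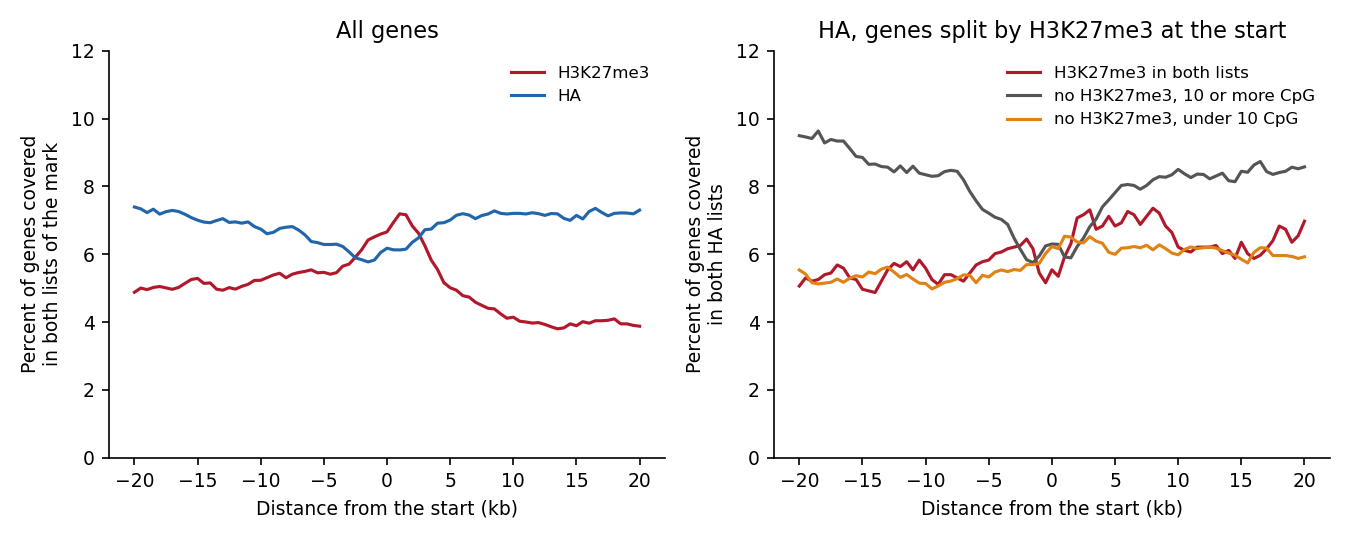
Percent of genes covered in both lists at each distance (kb) from the main start, negative upstream. The left panel shows H3K27me3 (red) and HA (blue) over all 21800 genes, and the right panel HA for genes split by H3K27me3 and by CG content of the promoter; H3K27me3 peaks near the start, and HA is lower there, at 6.30% against 9.50% at 20 kb upstream, in genes with at least 10 CG dinucleotides and no H3K27me3.

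At gene starts HA was about as frequent with H3K27me3 as without it, and over genome bins it was more frequent with it. At gene starts both marks were called at 221 genes, 1.01% of all. HA was present at 10.6% of the H3K27me3 genes and 10.2% of the other genes, and H3K27me3 at 9.90% of the HA genes. On a grid of 1 kb bins, HA in both lists filled 3.69% of all bins and 6.01% of the 91240 bins with H3K27me3, a ratio of 1.63. Conversely 5.62% of the 97700 HA bins held H3K27me3, which filled 3.45% of all bins. The share of 6.01% was 11.1% with the second HA list alone and 15.1% with the first HA list alone, while the ratio was between 1.44 and 1.74 for the 4 pairs of single lists. Of the bases with both marks 5.66% lay within 1 kb of a start, 2.73 times their share of the genome, against 2.38 times for H3K27me3 and 2.02 times for HA.

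The ratio depended on where bases lay. Counted over units of 50 bp in place of 1 kb bins, it was 0.990 within 1 kb of starts, 1.09 in exons, 1.61 in introns and 1.96 between genes. By GC content of 1 kb bins the ratio was 4.24 under 35%, where 0.514% of bins held HA. It was 1.35 at 40 to 45%, 1.00 at 50 to 55% and 0.804 at 55% or more, where 16.4% did. Stretches of extreme coverage were not left out of these classes. That at Gm21738, with a GC content of 34.5%, lay wholly inside HA, and the part of such stretches in the ratio of each class was not tested. Over all 1 kb bins the ratio was 1.63, and 1.59 without peaks of mean coverage over 50. That limit was chosen after the data were seen. By region length 7.07% of H3K27me3 regions under 2.5 kb touched HA and 32.4% of those of 50 kb or more did, with 4.37% and 6.16% of their bases inside HA. The 1575 shared stretches totalled 3.91 Mb, 5.25% of the H3K27me3 and 4.92% of the HA bases, with a median of 2.10 kb, and 178 held a gene start.

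The 5 longest shared stretches, of 13.4 to 16.5 kb, held no protein-coding start. The longest of all and the third lay on chromosome 11 near Sfi1, with HA relative coverages of 13.3 in the first list at both, and the second, on chromosome 8 near Gm15319, had 5.14 and 4.20; these 3 thus coincide with high HA coverage. The other 2, near Calcoco1 and Dnah1, had HA values of 1.05 to 1.19. Among genes named by the rules for H3K27me3, both marks were called at Tbx21, a T cell regulator (H3K27me3 2.02 and 1.84, HA 1.09 and 0.967), Wnt8b (HA 0.975 and 0.769), Chat (0.833 and 0.898), Rbfox3, a neuronal splicing factor (1.27 and 1.02), Grin1, Grin2c, Krt1, Krt77, Olfr1410 and Hoxc4. In the longest H3K27me3 region, that of the Hoxc cluster, HA covered 18.5% of the bases, and in those of Hoxb and Pax2 it covered none.

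The landscapes also differed by chromosome. H3K27me3 in both lists covered between 1.57% (chromosome 18) and 5.32% (chromosome 19) of an autosome, with a median of 2.85%. HA covered between 0.733% (chromosome 18) and 9.28% (chromosome 11), with a median of 2.47%. On chromosome 15 HA was present at 34.4% of gene starts and on chromosome 11 at 23.3%, against 2.90% on chromosome 3. Cover by the marks had a Spearman rho of 0.704 over 19 autosomes, and HA cover had one of 0.374 with genes per Mb; these describe chromosomes of the same lists. The X chromosome had more H3K27me3 and less HA than every autosome in the first list, with 10.4% of its bases in H3K27me3 peaks in the first list and 6.41% in the second, and 2.10% and 1.42% in HA peaks. It held 1866 of the 14326 H3K27me3 regions and 16.0% of its genes were marked. The H3K27me3 lists differed more in cover on the X chromosome than on any autosome, with 3965 peaks in the first and 2578 in the second. The Y chromosome had a single region in both H3K27me3 lists.

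**Figure D4:**
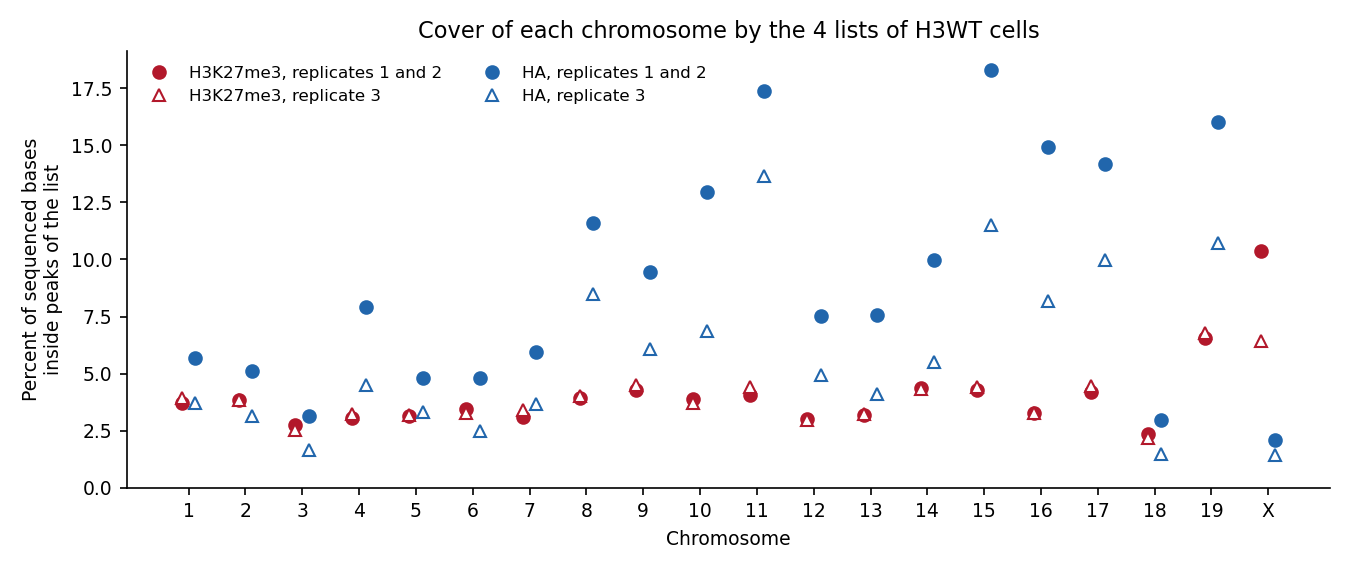
Percent of the sequenced bases of each autosome and the X chromosome inside the peaks of each of the 4 lists of H3WT cells, with H3K27me3 in red, HA in blue, circles for the first list (replicates 1 and 2) and triangles for the second (replicate 3). HA is highest on chromosomes 11, 15 and 19 and lowest on 3, 18 and X among those shown, and H3K27me3 is highest on the X chromosome in the first list (10.4%) and on 19 in the second (6.79%).

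Whether HA peaks of H3WT differ from those of the mutant histones was asked over 10 independent HA lists, 2 of H3WT and 8 of the mutants, with 1 list of each mutant shared by replicates 1 and 2. Each genotype gave 2 of these lists, so the lists are not replicates of wild type against mutant. The tests treat all 10 lists as exchangeable, and their p-values compare lists only. The H3WT lists were wider and larger than all mutant lists. The median peak width was 10.7 and 2.65 kb in H3WT, with a mean of 6.68 ± 5.69 (SD, n = 2), and between 0.800 and 1.60 kb in the mutants, with a mean of 1.08 ± 0.299 (SD, n = 8). Covered length was 213.4 and 134.6 Mb in H3WT and 42.9 to 93.4 Mb in the mutants. H3K27me3 regions of H3WT were covered by H3WT HA at 14.1% and 8.68% of their bases, and by mutant HA at 2.48% to 7.35%, with a mean of 3.74% ± 1.62 (SD, n = 8). The H3WT values did not overlap those of the mutants in these 3 measures. Each gave p = 0.0444 in a two-sided exact permutation test, the smallest that 45 arrangements allow, with an adjusted p of 0.0593 over 4 comparisons. The share of H3K27me3 bases covered has the same denominator in all lists. At an equal share of HA bases inside these regions it grows with covered length, so it is no separate sign of a preference for them.

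The share of HA bases inside H3K27me3 regions did overlap. It was 6.80% and 6.65% in H3WT and 4.81% to 8.98% in the mutants, with means of 6.72% ± 0.103 (SD, n = 2) and 6.28% ± 1.43 (SD, n = 8), a difference of 0.444 percentage points (exact permutation p = 0.622, adjusted 0.622). The lowest total signal of a peak was 43200 and 6300 in H3WT and 1350 to 3250 in the mutants, and H3WT lists held 15344 and 37907 peaks against 46398 to 52083. By the read totals that the study states, the H3WT HA libraries labelled replicates 2 and 3 were deeper than every mutant HA library, and that labelled replicate 1 lay within their range. Depth and signal floor thus move with the wider and larger H3WT lists, and their part in the width and cover was not tested. The chromosomes most covered were 11 or 15 in all 10 lists, and the least covered autosome was 18 in 8 of 10 and 3 in the other two. On chromosome 18 cover was 2.99% and 1.5% in H3WT and 0.446% to 0.940% in the mutants.

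**Figure D5:**
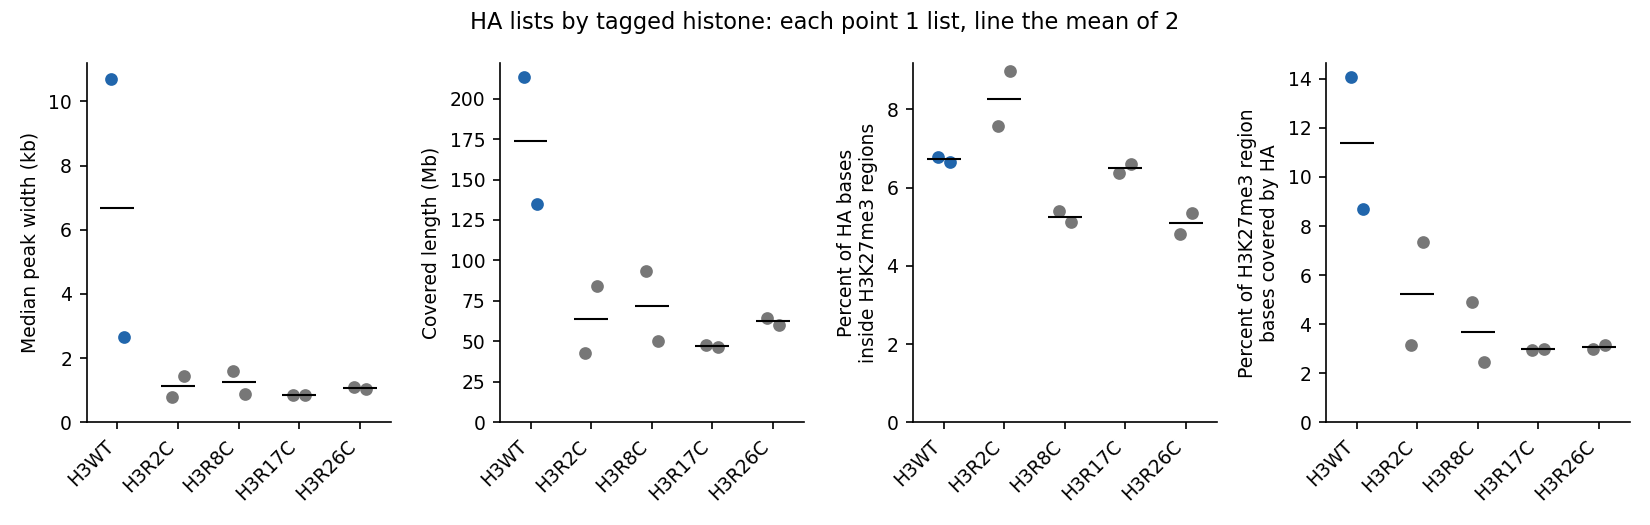
Median peak width, covered length, percent of HA bases inside the H3WT H3K27me3 regions and percent of the bases of those regions covered by HA, for each independent HA list (points, 2 for each tagged histone) with the mean (line). The 2 H3WT lists (blue) lie above all 8 mutant lists (grey) in width, length and percent of H3K27me3 bases covered, and among them in the percent of HA bases inside H3K27me3 regions.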

How the data were processed

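CUT&RUN was performed by the authors with antibodies against HA and H3K27me3, and single-end reads were aligned to mm10 with Rsubread. Peaks were called by the authors with SEACR 1.3 (stringent mode, normalized, threshold 0.01), which keeps a top share of blocks and so partly sets the peak number; ChIPseeker 1.28.3 is named too in the submitters' processing notes. For read filters, duplicates and the calling control the sources used here state nothing. The deposited lists give for each peak a total and a maximum signal, which is coverage and not scaled to depth. All edges lie on a grid of 50 bp. The precision of each value is limited by 2 lists per antibody, and because 2 of the 3 labelled replicates were identical, p-values measure the spread between these lists, which may be technical.

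Identical lists were counted once. Peaks were merged per antibody, 1 mitochondrial peak was left out, and regions, 1 kb bins and genes were scored in Python 3 with numpy and pandas against GENCODE vM21 basic annotation (21800 protein-coding genes, 41354 starts, 27 symbols shared by several genes left out). The main start of a gene was that of its principal transcript. Overlaps were checked on simulated lists with known answers. Comparisons used exact two-sided permutation tests with Benjamini-Hochberg adjustment over 4 measures. Alternatives were thresholds, windows, bins, merging, labelled replicates and omitted lists. Members, gene lists and tests were chosen with earlier results of these data known. The genes named are, in each list, up to 3 marked genes with the longest region and up to 3 without a peak, genes of the longest and strongest regions and shared stretches, and lineage genes named in the text of the study; the remaining values of listed genes were chosen after they were seen. Lists of the mutants other than HA were not used here. A few items of the lists are not reported here.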

Additional observations from a re-analysis of the deposited data

How the results depend on the processing

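The H3K27me3 side changed less with the settings than the HA side. Region counts were 7571 for H3K27me3 and 5178 for HA with the upper 50% of peaks, and with each list on its own they ranged from 20543 to 22083 and from 15344 to 37907, where each peak of a list counts as a region. HA regions numbered 4682 when each list had to cover 50% of the region, 6560 with equal numbers of top peaks and 15182 by a majority of the 3 labelled replicates. Genes with HA numbered 3996 within 5 kb, 1472 with the upper 50% of peaks, 3821 by the majority and 3796 to 3821 with single lists; those with H3K27me3 stayed within 1.5 times of the main count.

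The share of H3K27me3 bins with HA was 8.29% in 5 kb bins, 4.39% with the upper 50% of peaks, 4.20% with equal numbers of peaks, 12.9% by the majority and 4.95% to 15.1% without 1 list. That of HA bins with H3K27me3 was 5.03% in 200 bp bins, 7.70% in 5 kb bins, 4.48%, 5.39% and 7.01% under the same 3 settings, 5.58% on autosomes, 5.48% without peaks of mean coverage over 50 (chosen after seeing the data) and 6.04% and 6.27% without the second list of HA or of H3K27me3, with 6.001% to 7.19% over all lists left out. The ratio of observed to background overlap stayed above 1 in all 11 settings, between 1.34 and 1.78.

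In the comparison of HA lists, all 3 labelled replicates of each group taken as separate gave differences of 6.94 kb, 125.6 Mb and 8.60 percentage points (H3WT minus mutants, adjusted exact permutation p = 0.00586), which treats copies as replicates. The share of HA bases inside H3K27me3 regions reversed to -0.0601 with equal numbers of top peaks. With the replicate block (permutation within replicate number) the width difference stayed at 5.6 kb with an exact p of 0.08, the smallest that block allows. The correlation of list differences between the H3WT HA lists and the 5 other groups over 100 kb windows was 0.00011 to 0.0553. The library behind the list shared by replicates 1 and 2 is not stated, so this cannot decide whether replicate numbers pair the lists. Leaving out 1 H3WT list gave differences of 1.58 to 9.63 kb, 73.4 to 152.2 Mb, 0.371 to 0.517 and 4.93 to 10.3 percentage points, none with a test that could pass.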
